A study of Mus musculus with 4 samples.

Results

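S9.6 CUT&Tag of P19 cells given the second of 2 Ube2t hairpins, shUbe2t #2, was compared with S9.6 CUT&Tag of P19 cells given a control hairpin, shCtrl. The members are the distinct called intervals of these 2 peak lists, 1640 in shUbe2t #2 and 1263 in shCtrl, together 2903 of the 4938 intervals in the 4 lists of the series. An interval counted as shared when it overlapped an interval of the other list by at least 1 bp. By that rule 928 shUbe2t #2 intervals were in that list only, 560 shCtrl intervals were in that list only, and 712 shUbe2t #2 intervals met 703 shCtrl intervals. The 928 intervals outside the shCtrl list lay mostly at the ends of genes, whereas the 560 on the control side were spread more evenly over gene ends, gene bodies and the space between genes.

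P19 is a mouse embryonal carcinoma line. The shUbe2t #2 cells carried a knockdown adenovirus against Ube2t and are given the genotype Ube2t knockdown. The shCtrl cells carried a control adenovirus and are given the genotype wild type. A different adenovirus, shUbe2t #1, gave a further S9.6 library, used here only as a side value, and a library of shCtrl cells made without primary antibody was the background. The deposited peak names of that last library begin with IgG, so "no antibody" follows its label. Each condition is 1 library of 1 cell line, with no replicate check, so no test between conditions was made and every difference is one between these libraries. Bounds in parentheses beside a share are its 95% binomial interval (exact, Clopper-Pearson), which covers counting error and nothing else.

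An R-loop is a stretch of double-stranded DNA in which an RNA has paired with one strand and displaced the other. R-loops form behind RNA polymerase, often where newly made RNA is rich in G, and CpG-rich promoters are a common place for them. Helicases, nucleases and the Fanconi anaemia pathway, in which UBE2T is the ubiquitin-conjugating enzyme for FANCD2 and FANCI, act on R-loops or on the replication forks that meet them. S9.6 binds RNA:DNA hybrids, and in CUT&Tag a transposase held at the antibody inserts adapters into the DNA nearby. No library in which hybrids had been digested was analysed here, so a called interval is an S9.6 interval and not by itself an R-loop.

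Promoters under some of the intervals named below are printed here as examples. Each line gives the 250 bases before a listed start, from RefSeq on GRCm38.p6 (the same build as mm10), read 5′ to 3′ in the direction of transcription. Capitals mark GGGCGG or its reverse complement CCGCCC, the core letters of a GC box. Inpp5f and Anapc4 had the highest folds outside the shCtrl list, Pcid2 and Polr2a are list members outside it, Gatad2a and Eef1a1 were in both lists, and Nr6a1 and Wasf1 were in the shCtrl list only.
Inpp5f (chr7:128611115-128611364, plus strand): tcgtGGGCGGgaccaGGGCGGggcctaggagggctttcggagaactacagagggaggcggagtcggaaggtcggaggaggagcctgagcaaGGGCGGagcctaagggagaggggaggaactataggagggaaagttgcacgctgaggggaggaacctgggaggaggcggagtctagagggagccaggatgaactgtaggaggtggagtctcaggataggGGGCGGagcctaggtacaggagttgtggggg
Anapc4 (chr5:52833885-52834134, plus strand): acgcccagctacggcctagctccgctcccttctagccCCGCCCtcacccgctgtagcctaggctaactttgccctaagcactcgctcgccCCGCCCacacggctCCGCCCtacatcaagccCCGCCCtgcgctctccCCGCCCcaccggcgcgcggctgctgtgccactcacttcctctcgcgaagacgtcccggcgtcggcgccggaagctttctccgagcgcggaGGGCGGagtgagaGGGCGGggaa
Pcid2 (chr8:13105344-13105593, minus strand): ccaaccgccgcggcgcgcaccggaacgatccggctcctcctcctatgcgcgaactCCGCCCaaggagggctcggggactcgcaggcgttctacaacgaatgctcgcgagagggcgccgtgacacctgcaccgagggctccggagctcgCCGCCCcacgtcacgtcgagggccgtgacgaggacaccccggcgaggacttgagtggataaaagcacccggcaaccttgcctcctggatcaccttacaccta
Polr2a (chr11:69758634-69758883, minus strand): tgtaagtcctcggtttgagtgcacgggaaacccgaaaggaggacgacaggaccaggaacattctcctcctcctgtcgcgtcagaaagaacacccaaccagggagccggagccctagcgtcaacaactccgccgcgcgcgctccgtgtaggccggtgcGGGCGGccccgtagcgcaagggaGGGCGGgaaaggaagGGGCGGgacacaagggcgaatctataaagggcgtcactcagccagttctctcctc
Gatad2a (chr8:69996385-69996634, minus strand): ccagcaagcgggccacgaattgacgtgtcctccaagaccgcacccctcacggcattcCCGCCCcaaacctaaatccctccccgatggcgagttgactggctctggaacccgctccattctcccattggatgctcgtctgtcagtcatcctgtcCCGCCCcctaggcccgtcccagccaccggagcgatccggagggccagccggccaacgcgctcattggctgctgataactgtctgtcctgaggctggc
Eef1a1 (chr9:78481725-78481974, minus strand): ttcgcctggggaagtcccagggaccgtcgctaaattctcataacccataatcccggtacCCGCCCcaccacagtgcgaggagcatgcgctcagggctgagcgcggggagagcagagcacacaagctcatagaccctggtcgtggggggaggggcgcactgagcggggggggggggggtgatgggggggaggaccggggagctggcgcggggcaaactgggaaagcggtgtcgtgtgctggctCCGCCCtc
Nr6a1 (chr2:38926462-38926711, minus strand): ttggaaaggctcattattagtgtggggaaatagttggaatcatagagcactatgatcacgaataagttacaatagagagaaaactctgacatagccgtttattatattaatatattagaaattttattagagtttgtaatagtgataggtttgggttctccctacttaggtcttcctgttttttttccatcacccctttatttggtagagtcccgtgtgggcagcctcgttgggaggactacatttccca
Wasf1 (chr10:40883284-40883533, plus strand): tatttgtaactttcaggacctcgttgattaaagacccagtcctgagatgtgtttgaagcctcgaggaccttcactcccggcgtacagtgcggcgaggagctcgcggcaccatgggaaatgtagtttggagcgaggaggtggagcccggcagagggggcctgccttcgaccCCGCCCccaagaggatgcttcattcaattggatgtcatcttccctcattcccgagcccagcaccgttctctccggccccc
G + C made up 63.6% of the Inpp5f window and 70.8% of the Anapc4 window, which held 4 and 7 of the capitalised motifs. The Pcid2 and Polr2a windows had 67.2% and 62.8% G + C with 2 and 3 motifs. Gatad2a and Eef1a1, called in both lists, had 64.0% and 68.0% with 2 motifs each. On the control side Wasf1 had 58.4% with 1 motif, and Nr6a1 37.6% with 0 motifs. These windows are examples and not a ranking by fold, and Pdcd10, with the highest named control fold at a gene end, is not among them. They do not stand for the shCtrl only promoters, whose median G + C was 64.4% and of which 77.6% held the motif.

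Both lists held weak, narrow intervals. The median interval was 266 bp wide with a fold enrichment of 4.92 in shUbe2t #2, and 280 bp wide with a fold of 4.82 in shCtrl. Fold enrichment is the authors' ratio of a summit to its local background. The summit pileup, the number of fragments stacked at the summit, was solved from the deposited fold and p and had a median of 16 and a lowest value of 8 in each list. The lowest background of a library, which scales with its number of fragments, was 1.23 in shUbe2t #2, 1.31 in shCtrl and 0.772 without antibody. By that measure shUbe2t #2 had 93.6% of the depth of shCtrl, and the no-antibody library had 58.7%. Ube2t itself held 0 intervals in any library, with the nearest S9.6 interval 226 kb away. Intervals of genomic DNA do not measure its transcript, so the knockdown was not checked here.

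The shUbe2t #2 list was the longer one although its library was the shallower. Of its intervals, 56.6% (928 of 1640, 54.1 to 59.0) were outside the shCtrl list, against 44.3% (560 of 1263, 41.6 to 47.1) in the other direction. The lists differ in length, and these counts move with it: when both were cut to equal length, keeping the best intervals by p, 615 shUbe2t #2 intervals and 623 shCtrl intervals were outside the other list. Lists of equal length give nearly equal numbers by construction, so those values do not tell whether the lists differ in number for another reason.

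Intervals in both lists were the ones most often seen without antibody. A no-antibody interval overlapped 53.8% of the shared intervals (383 of 712), 2.05% of those in shUbe2t #2 only (19 of 928) and 6.96% of those in shCtrl only (39 of 560). The strongest no-antibody sites, on chromosome 6 at 103648978 to 103649382, chromosome X at 143482906 to 143483209 and chromosome 9 at 24541917 to 24542259, were all shared. Their summit pileups were 2358, 355 and 360 in shUbe2t #2 and 2567, 384 and 379 in shCtrl. Without antibody they held 2187, 342 and 319. Locations, promoters and signal are therefore described for intervals free of no-antibody intervals: 909 in shUbe2t #2 only, 521 in shCtrl only and 329 in both. The no-antibody library came from shCtrl cells, at 58.7% of the depth of shCtrl, and shUbe2t #2 cells had no such library. The filter can therefore miss weak background and background particular to shUbe2t #2 cells. Free here means without a called no-antibody interval, not without background.

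Gene ends took the larger part of the shUbe2t #2 intervals outside the shCtrl list. Intervals reaching to 1000 bp or less from an annotated start or stop of a gene are called gene-end intervals here. Those further inside a gene are gene-body intervals, and the rest lie between genes. In shUbe2t #2 only, 68.4% (616 of 901 placed on chromosomes 1 to 19, X and Y, 65.2 to 71.4) were at gene ends, 17.5% in gene bodies and 14.1% between genes. In shCtrl only, 39.0% (197 of 505, 34.7 to 43.4) were at gene ends, 30.5% in gene bodies and 30.5% between genes. Shared intervals lay between them, with 58.9% (188 of 319, 53.3 to 64.4), 23.2% and 17.9%. Bases within 1000 bp of a gene end make up 6.10% of the span from 3000000 bp of each chromosome to its last gene. Counted with no-antibody overlaps included, the gene-end shares were 67.6%, 37.0% and 36.5%. In lists of equal length, also with those overlaps included, they were 70.3% in shUbe2t #2 only and 38.9% in shCtrl only.

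**Figure D1:**
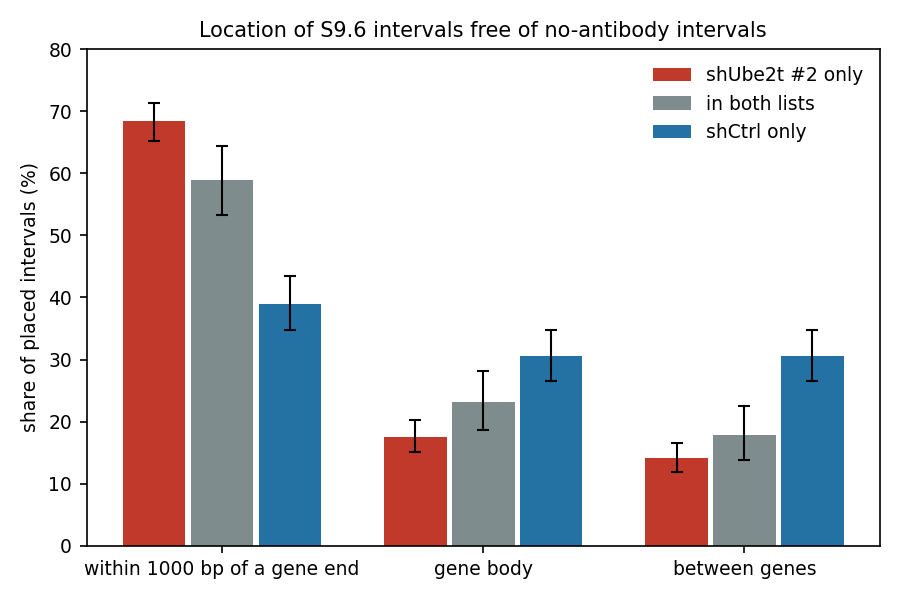
Share of placed S9.6 intervals free of no-antibody intervals (vertical axis, percent) at gene ends, in gene bodies and between genes, for intervals in shUbe2t #2 only (901), in both lists (319) and in shCtrl only (505). Bars are shares and error bars exact 95% binomial intervals; at gene ends the bars stand at 68.4%, 58.9% and 39.0%, and between genes the order is turned, at 14.1%, 17.9% and 30.5%.

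The difference in gene-end share was present in weak and strong calls alike. Among shUbe2t #2 only intervals it was 63.2% (208 of 329) with a deposited −log10 q under 3, 74.3% (248 of 334) from 3 to under 5, and 67.2% (160 of 238) from 5 upward. Among shCtrl only intervals the same classes gave 35.9% (89 of 248), 43.9% (75 of 171) and 38.4% (33 of 86). Strong calls were also a larger part of the shUbe2t #2 side, where 26.3% (239 of 909, 23.5 to 29.3) had a −log10 q of at least 5, against 17.3% (90 of 521, 14.1 to 20.8) on the control side. Shared intervals had 53.5% by the values of the shUbe2t #2 list. Median folds were nevertheless close, at 4.61 in shUbe2t #2 only, 4.42 in shCtrl only and 4.96 in both.

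Summits near transcription starts lay more often upstream than downstream of them. Listed starts with their strand were taken from the RefSeq promoter table, which holds 32851 starts of 27025 genes. Of the intervals on chromosomes it covers, 62.2% in shUbe2t #2 only (542 of 871, 58.9 to 65.5) had their summit within 1000 bp of such a start. The share was 30.4% in shCtrl only (150 of 493, 26.4 to 34.7) and 48.5% in both (149 of 307, 42.8 to 54.3), where 2.17% of bases lie that close. Positions are given relative to the start, with upstream negative. The median summit position was -64 bp in shUbe2t #2 only, with quartiles of -167 and 29. It was -46 bp in shCtrl only, with quartiles of -137 and 57, and -90 bp in both, with quartiles of -183 and 11. Upstream summits made up 68.6%, 62.0% (53.7 to 69.8) and 74.5% of them. The 3 classes thus differed in how many intervals were at starts more than in where around a start the summits lay.

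**Figure D2:**
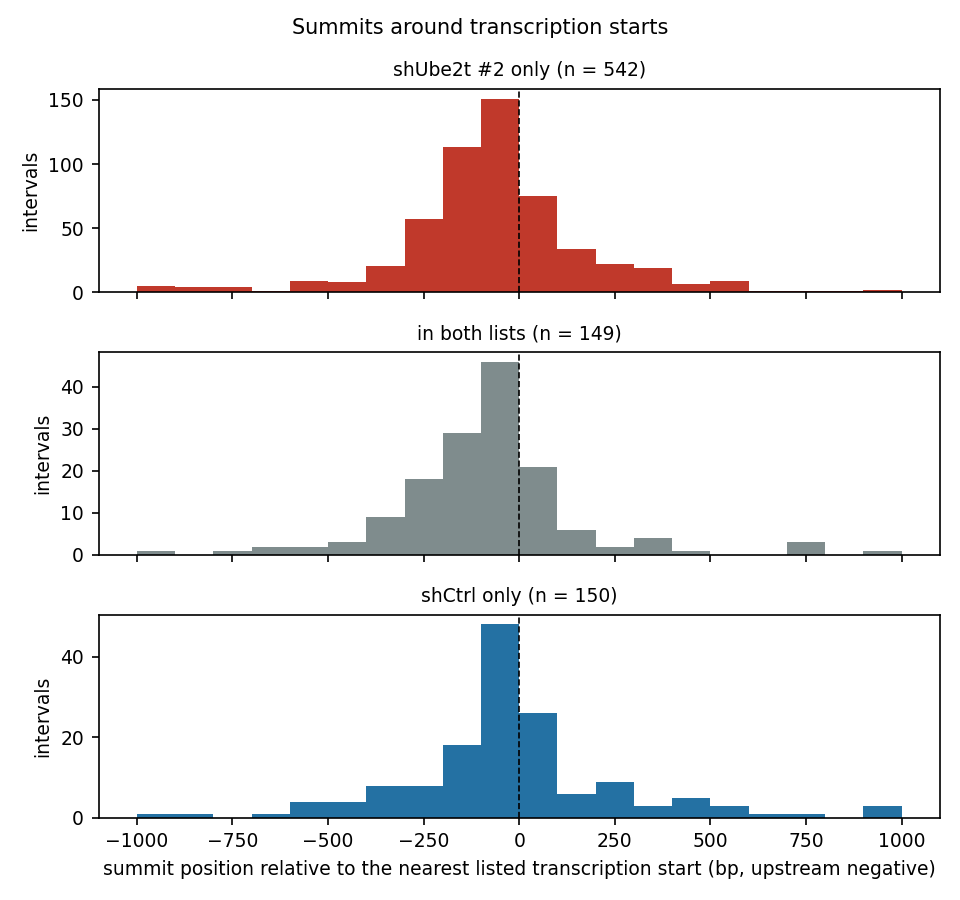
Number of intervals free of no-antibody intervals (vertical axes, each panel with its own scale) by position of the summit relative to the nearest listed transcription start (horizontal axis, bp in bins of 100, upstream negative). The panels hold the 542 intervals in shUbe2t #2 only, the 149 in both lists and the 150 in shCtrl only; each has its peak just upstream of the start, with medians of -64, -90 and -46 bp.

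Some of these summits had starts on both strands within reach. Listed starts of both strands lay within 1000 bp of the summit at 26.0% of these shUbe2t #2 only intervals (141 of 542, 22.4 to 29.9). The share was 26.2% of the shared ones (39 of 149) and 20.7% of the shCtrl only ones (31 of 150, 14.5 to 28.0). Over all listed starts, 15.1% had an opposite-strand start within 1000 bp of the start itself. Starts of a pair around a summit can lie further apart than that, so the 15.1% is no background for these shares. At such a pair the files do not tell which gene an interval belongs to, and the partner is named below for some genes only.

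The promoters overlapped had close median base composition whichever list called them. A promoter counted when an interval free of no-antibody intervals overlapped the 250 bases before its start. Median G + C was 64.0% in the 577 promoters of shUbe2t #2 only, 64.4% in the 143 of shCtrl only and 64.8% in the 171 of both, against 52.4% in all 32851. CpG-rich promoters, with over 55% G + C and an observed over expected CpG ratio above 0.6, made up 75.7%, 76.2% and 75.4%, against 27.6% of all. GGGCGG on either strand was in 77.6% (74.0 to 81.0), 77.6% (69.9 to 84.2) and 78.9% (72.1 to 84.8), against 32.7% of all. The CCAAT box letters, CCAAT on either strand, were in 51.3%, 51.0% and 56.7%, against 33.8%. TATAAA on either strand was the reverse, in 3.47%, 2.10% and 2.92%, against 12.4% of all. CCGGAAG on either strand, the letters bound by ETS factors, was in 14.7%, 16.8% and 11.1%, against 6.91%. These matches are letters in a window and not sites. Promoters overlapped by S9.6 intervals therefore stood apart from listed promoters in general, while promoters of the 3 classes had bounds that overlapped for each of these 4 motifs. GGGGG on either strand, in 66.2%, 63.6% and 67.8% against 47.2% of all, gave the same picture. CACGTG was less alike: it was in 7.11% of shUbe2t #2 only promoters (5.15 to 9.52) and 15.4% of shCtrl only promoters (9.90 to 22.4). These bounds are narrowly apart and are no test between conditions. They also count starts as separate, although the 577 belong to 542 genes and the 143 to 131.

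**Figure D3:**
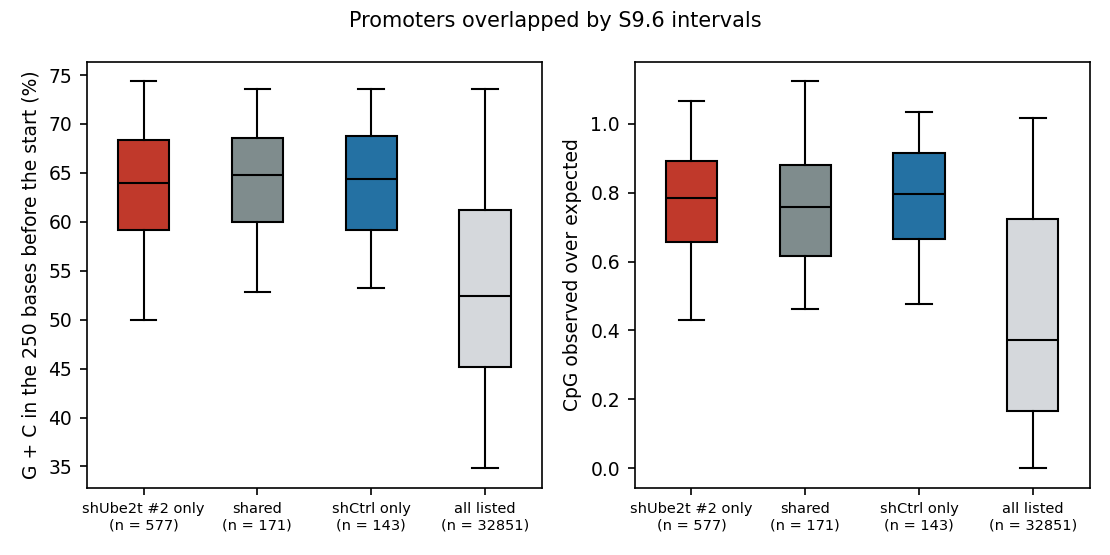
G + C in the 250 bases before the start (left, percent) and observed over expected CpG (right, a ratio) of promoters overlapped in shUbe2t #2 only (577), in both lists (171), in shCtrl only (143) and of all listed promoters (32851). Boxes are quartiles with the median and whiskers reach the percentiles that leave out the outer 5% on each side; the first 3 boxes lie close together, with median G + C of 64.0%, 64.8% and 64.4%, above 52.4% for all.

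Genes were then counted by the intervals they held, in the body or within 1000 bp beside it. Here and in the gene lists below all intervals were used, those overlapping a no-antibody interval included. Of 49943 placed genes, 979 (1.96%) held a shUbe2t #2 interval and no shCtrl interval, 374 (0.749%) the reverse, and 519 (1.04%) both. Of 21887 protein-coding genes the numbers were 800 (3.66%), 285 (1.30%) and 386 (1.76%). Long non-coding RNA genes followed the same order, with 141, 52 and 76 of 12727. Pseudogenes did not, with 5, 21 and 30 of 9944, and many of them have close copies elsewhere, among which read placement is uncertain. In lists of equal length the counts over all placed genes were 685 and 433. With intervals overlapping a no-antibody interval left out they were 978 and 365.

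The strongest shUbe2t #2 only intervals at gene ends were ranked by fold, with predicted genes last. Inpp5f, an inositol phosphatase gene, came first (chr7:128611056-128611416, overlapping the gene end). Its fold was 10.2 from 25 fragments, with the summit at position -116. At the depth of shCtrl this summit would stand at 26.7 fragments, where 9 would have been enough for a call, a margin of 2.97 times. Anapc4, a subunit gene of the anaphase-promoting complex, also had 25 fragments, a fold of 8.78 and a margin of 2.67 (chr5:52833796-52834100, 35 bp from the gene). Both were also called in shUbe2t #1, with 15 and 13 fragments. They are thus the clearest examples of a promoter with an interval in shUbe2t #2 and none called in shCtrl.

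The next 4 held between 17 and 27 fragments and were not called in shUbe2t #1. Kdm3a, a histone H3K9 demethylase gene, had a fold of 7.96 from 17 fragments, 372 bp from the gene. Oasl1, an interferon-inducible gene of the oligoadenylate synthetase family, had 7.94 from 26, and its interval is also near the predicted gene Gm13822. Atp6v0a1, a subunit gene of the vacuolar proton pump, had 7.91 from 21. Pa2g4, which encodes a proliferation-associated RNA-binding protein, had 7.87 from 27. Margins of these 4 ran from 2.24 at Atp6v0a1 to 2.53 at Oasl1.

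The other 8 named at gene ends had folds from 7.14 at Pnpla8 to 6.47 at Fam221a. Among them, Ddx59, a DEAD-box RNA helicase gene, had 7.04 from 19 fragments with the summit at -35. G3bp1, which encodes a core protein of stress granules, had 6.72 from 26. S100pbp (6.97) shares its promoter region with Yars, the tyrosyl-tRNA synthetase gene, and Dgkq (6.77), a diacylglycerol kinase gene, with Idua, a lysosomal iduronidase gene. Rbpms, an RNA-binding protein gene, had 6.82, and Ap3d1, of the AP-3 adaptor, 6.69. S100pbp, Rbpms, G3bp1 and Fam221a were also called in shUbe2t #1, with 13, 11, 15 and 10 fragments.

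Gene bodies held fewer of the strong shUbe2t #2 only intervals. Ppp2r3c, a regulatory subunit gene of protein phosphatase 2A, led with a fold of 8.47 from 19 fragments, 8119 bp inside the gene (chr12:55294921-55295120), and had 15 fragments in shUbe2t #1. Wdr17 followed with 7.83 from 17 and Gulp1, an engulfment adaptor gene, with 7.17 from 15. Cfap46 (6.82), Sptbn4, a beta spectrin gene (6.60), and Dcaf11, a substrate receptor gene of CUL4 ligases (6.39), were the others. The Wdr17 and Dcaf11 summits lay at -124 and -142 relative to a start listed inside the gene's outer ends, so these are promoter intervals by the listed starts although gene-body intervals by the rule.

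On the control side the highest named fold at a gene end was 8.27 from 21 fragments at Pdcd10, a gene of the cerebral cavernous malformation complex (chr3:75556974-75557335). It ended 14 bp from a shUbe2t #2 interval at Serpini1, which shares this promoter region, so at this promoter both lists held an interval without overlapping. Nr6a1, the germ cell nuclear factor gene, had 6.82 from 20 fragments with the summit at 39, and its window is the one printed with 37.6% G + C. Wasf1, an actin regulator gene next to Cdc40, had 6.69 from 18, and Clcn3, a chloride-proton exchanger gene, 6.41 from 14. Mcee (next to Mphosph10), Pcnx4, Cox18 and Myo6 had folds from 6.39 to 6.13 and 15 to 18 fragments. In gene bodies the named intervals included Cmtm6 (7.14), Frmd4a (6.69) and the pseudogene Mid1-ps1 (6.48). Pdcd10, Pcnx4, Frmd4a and Mid1-ps1 were also called in shUbe2t #1, with 14, 9, 15 and 10 fragments. Margins of the intervals named here were between 1.56 at Pcnx4 and 2.18 at Pdcd10. These intervals were picked by fold, which goes with the margin, so they do not describe the control side as a whole. The highest margin of all shCtrl only intervals free of no-antibody intervals was 2.29.

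Margins were also taken over all members. A margin uses the pileup and background of the library with the call, scaled by depth, and no value of the other library. The median margin was 1.36 in shUbe2t #2 only and 1.19 in shCtrl only. It exceeded 1.5 at 29.4% of the first (267 of 909, 26.4 to 32.5) and 13.1% of the second (68 of 521, 10.3 to 16.3). By location, the shUbe2t #2 only shares over 1.5 were 28.9% at gene ends, 36.1% in gene bodies (28.6 to 44.1) and 23.6% between genes. Signal of the library without a call was not measured. An interval missing from a list can hold signal just below the threshold, so absence of a call does not show absence of signal.

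The other hairpin held part of the same intervals. Of the shUbe2t #2 only intervals free of no-antibody intervals, 29.7% at gene ends (183 of 616, 26.1 to 33.5) were also called in shUbe2t #1, against 17.1% in gene bodies (11.6 to 23.9) and 15.0% between genes (9.25 to 22.4). Of the shCtrl only ones the shares were 20.8% (15.4 to 27.2), 14.3% (9.17 to 20.8) and 11.7% (7.08 to 17.8). At each location these bounds overlap those of shUbe2t #2 only. Shared intervals were called there at 67.0%, 63.5% and 63.2%. Most shUbe2t #2 only intervals were thus in 1 of the 3 S9.6 libraries.

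Intervals in both lists allow signal to be set side by side. The measure is the depth-scaled pileup, which divides each summit pileup by its own library's lowest background, and the ratio is shUbe2t #2 over shCtrl. At the 188 shared gene-end intervals free of no-antibody intervals, the median pileup was 16.0 fragments in shUbe2t #2 and 14.5 in shCtrl. The median ratio was 1.19 (1.15 to 1.25), single ratios ran from 0.534 to 2.85 (SD 0.357), and 73.9% were over 1. At the 74 in gene bodies it was 1.07 (1.07 to 1.15), and at the 57 between genes 0.996 (0.904 to 1.07). Shared intervals with a no-antibody interval had 1.04 at gene ends (0.966 to 1.11), 1.03 in gene bodies and 0.987 between genes. Intervals of a library are not replicates, so these bounds describe the set of intervals and not the condition. A call in both lists is required, which leaves out sites below the threshold in either.

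Ratios over 1.5 were also counted by location. Of all 712 shared intervals, 67 (9.41%) had a ratio over 1.5, and 32 (4.49%) had the reverse, with shCtrl over 1.5 times shUbe2t #2. At the 188 gene-end intervals the share over 1.5 was 20.2% (38, 14.7 to 26.7) and the reverse 2.13% (4). These 188 are free of no-antibody intervals, and over all 329 such shared intervals the share over 1.5 was 14.9% (11.2 to 19.2). At shared gene ends with a no-antibody interval it was 9.26% (5 of 54, 3.08 to 20.3). In gene bodies it was 6.76% over 1.5, and between genes 10.5% (3.96 to 21.5).

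**Figure D4:**
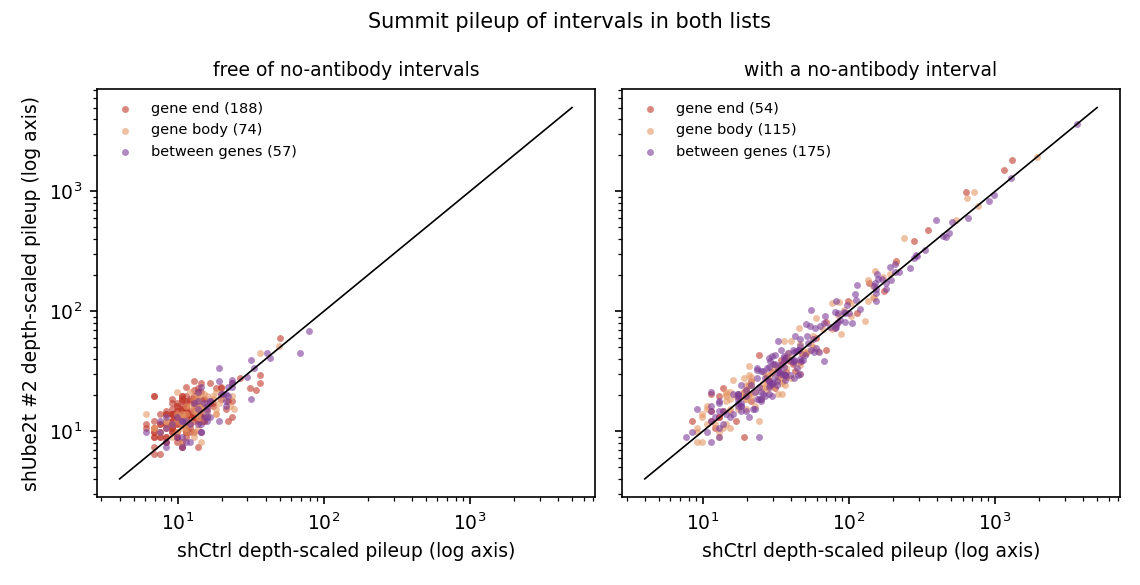
Depth-scaled summit pileup of intervals in both lists, with shCtrl on the horizontal and shUbe2t #2 on the vertical axis (both log axes, no unit), without (left) and with (right) a no-antibody interval. Each point is an interval coloured by location and the line marks equal values; on the left the gene-end points lie mostly above the line (median ratio 1.19), and on the right the points follow it up to the strongest sites (median ratios 1.04, 1.03 and 0.987).

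Hmbox1 and Gatad2a had the highest ratios, 2.85 each, from 24 fragments in shUbe2t #2 and 9 in shCtrl. Gatad2a encodes a subunit of the NuRD chromatin remodelling complex, and its promoter is printed above. In shUbe2t #1 it held 20 fragments. Hmbox1, a homeobox gene whose protein binds telomeric DNA, shares its interval with Ints9, an Integrator subunit gene, and had 9 fragments in shUbe2t #1, as in shCtrl. Uqcrq, a subunit gene of respiratory complex III beside Gdf9, had 29 against 15 fragments (ratio 2.07), and Garem1, an adaptor gene of growth factor signalling, 23 against 12 (2.05). Nr1d2, a circadian nuclear receptor gene, had 32 against 17 (2.01), and Msantd4 14 against 8 (1.87).

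The lowest named ratios were closer to 1. The microRNA gene Mir6546 on chromosome 1 had 16 fragments in shUbe2t #2 and 31 in shCtrl (0.552), in an interval that is also near the tRNA genes n-TGtcc1, n-TEctc5 and n-TDgtc3. Tmem267 had 27 against 45 (0.641), and Garnl3 19 against 28 (0.725). By rank of fold in both lists, Rnf41, a ubiquitin ligase gene, came first with 23 and 26 fragments (0.945), then the 5S ribosomal RNA gene n-R5s100 with 15 and 20 (0.802). Ap2a1, of the AP-2 clathrin adaptor, had 27 and 17 (1.70), and Rab30, a small GTPase gene, 16 and 19 (0.900). The strongest shared gene ends thus included ratios on both sides of 1.

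Gene lists of the pathways around UBE2T and R-loops held few members each, and their counts are to be read beside the 3.66% of protein-coding genes with a shUbe2t #2 interval alone and the 1.30% with a shCtrl interval alone. In the list of Fanconi anaemia and crosslink repair, 3 of 32 genes (9.38%) held a shUbe2t #2 interval alone, 0 a shCtrl interval alone and 1 both. Fancl, the ubiquitin ligase that works with UBE2T, had 15 fragments and a fold of 5.00. Rfwd3, a ubiquitin ligase gene of crosslink repair, had 12 (3.80), and Fancc, of the core complex, 12 in the gene body (4.81) with 15 in shUbe2t #1. Slx4, a nuclease scaffold gene, was in both lists, with 13 and 12 fragments. Margins at Rfwd3, Fancl and Fancc were 1.17, 1.46 and 1.43. At the depth of shCtrl each would thus stand under 1.5 times the pileup enough for a call.

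Of 36 genes of R-loop processing factors, 3 (8.33%) held a shUbe2t #2 interval alone and 0 a shCtrl interval. Among them, Xrn2, the exonuclease gene of transcription termination, had 14 with the summit at 536 (6.20, margin 1.66). Pcid2, of the mRNA export complex TREX-2, had 13 at -112 (4.32, margin 1.26), next to Cul4a. Neither of these sites was called in shUbe2t #1.

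DNA damage signalling and replication genes had 6 of 61 (9.84%) with a shUbe2t #2 interval alone and 1 (1.64%), Mdc1, with a shCtrl interval alone. Dtl, the substrate receptor gene of a replication-licensing ubiquitin ligase, shares its interval with the Integrator gene Ints7 and had 15 fragments, with 20 in shUbe2t #1. Gins2, of the replicative helicase, had 16 and 21. Chek2, a checkpoint kinase gene, had 11 in an interval shared with Hscb, Atm, the double-strand break kinase gene, 11 in an interval shared with Npat, and Mcm4 14 in an interval shared with Prkdc. The Orc4 interval, with 9 fragments, is nearest to Mbd5. Mdc1, a mediator of the break response, had 15 fragments in shCtrl. Of 34 immediate early and p53 response genes, 3 (8.82%) had a shUbe2t #2 interval alone: Gadd45a with 16 fragments, Jund with 15 and Egr1 with 28, none with a shCtrl interval.

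Lists of ubiquitin genes had shUbe2t #2 shares between 4.08% and 6.06%. Of 33 ubiquitin E2 genes, 2 (6.06%) had a shUbe2t #2 interval alone, Ube2u with 11 fragments and Ube2g1 with 20. The RNF family had 4 of 81 (4.94%), Rnf122, Rnf44, Rnf31 and Rnf5 (nearest to Agpat1), and the USP family of deubiquitinases 3 of 56 (5.36%), Usp46, Usp5 (nearest to Cdca3) and Usp9x. None of these 3 lists had a member with a shCtrl interval alone, and Rnf13, Rnf41, Usp37, Usp20, Usp34 and Usp22 held intervals of both. Usp34 also held a no-antibody interval. Proteasome genes had 2 of 49 (4.08%), Psmd12 and Psme2, the second in the interval it shares with Rnf31.

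Transcription and RNA genes gave counts of the same size. Integrator, which ends unproductive transcription, had 2 of 14 (14.3%), Ints7 and Ints6. Polr2a, the largest RNA polymerase II subunit gene, was the 1 of 13 on that list, with 19 fragments, a fold of 5.88 and the summit at -77. DEAD/DEAH-box helicases had 3 of 53 (5.66%), Ddx59, Dhx8 and Ddx42 (next to Ccdc47). Splicing genes had 4 of 66 (6.06%) in shUbe2t #2 alone, among them Hnrnpr, Hnrnpab and Sf3b2, and 2 (3.03%) in shCtrl alone, Sf3b3 and Hnrnpc (nearest to Rpgrip1). Nucleoporins had 1 of 20, Nup88 (next to Rpain).

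Ribosomal protein genes of mitochondria and of the cytoplasm were counted separately. Of 78 mitochondrial ones, 5 (6.41%) had a shUbe2t #2 interval alone, Mrpl41, Mrps2, Mrps28, Mrpl45 and Mrpl18 (nearest to Tcp1), with 11 to 16 fragments, and 1, Mrpl48, a shCtrl interval alone. Of 88 cytoplasmic ones, 0 had a shUbe2t #2 interval alone and 2 (2.27%), Rpl4 and Rpl37, a shCtrl interval alone, with 17 fragments each in intervals nearest to Snapc5 and Card6. Replication-dependent histone genes held 0 of 65 in any class. Housekeeping and highly transcribed genes had 3 of 40 (7.50%), Ybx1, Pkm and Fth1, against 2 (5.00%), Eno1 and Tuba1a, and 4 in both. The other lists were nearer the background or had a few more members on the control side. Very long and fragile-site genes had 2 of 37 (5.41%), among them Auts2, against 4 (10.8%), Ptprd, Csmd2, Dlg2 and Tenm3, all in gene bodies. Dlg2 also held a shUbe2t #1 interval, with 12 fragments. The median length of this list was 1223 kb, against 17.2 kb for protein-coding genes, and an interval anywhere in the body counts. Whether length accounts for these shares was not tested. Cyclin and CDK genes had 2 of 46 on each side, Cdk7 and Cdk16 against Ccne2 and Cdk20. Embryonal carcinoma and pluripotency genes had 1 of 35 on each side, Klf2 and Nr6a1. The Klf2 summit had 10 fragments and a margin of 0.972, so at the depth of shCtrl it would itself fall short of a call. Margins were also low at Ybx1, Pkm, Auts2, Cdk16, Zfp143 and Zfp948 (1.07 each). On the control side they were low at Tenm3 (1.05), Zfp28 (1.04), and Zfp2 and Olfr318 (1.03 each). Zinc-finger genes named Zfp had 16 of 402 (3.98%) against 5 (1.24%). The first were Zfp385b, Zfp687, Zfp37, Zfp248, Zfp143, Zfp747, Zfp3, Zfp367, Zfp712, Zfp219, Zfp174, Zfp597, Zfp654, Zfp53, Zfp948 and Zfp36l2, and the others Zfp981, Zfp984, Zfp28, Zfp280b and Zfp2. Zfp174 and Zfp597 hold the same interval, which is nearest to Naa60, and the intervals of Zfp219, Zfp654 and Zfp981 are nearest to Tmem253, Cggbp1 and Zfp993. Zfp981 and Zfp984 lie in a cluster of close copies on chromosome 4, where read placement is uncertain. Olfactory and vomeronasal receptor genes had 1 of 1474 (0.0678%) on each side, Olfr1382 and Olfr318.

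**Figure D5:**
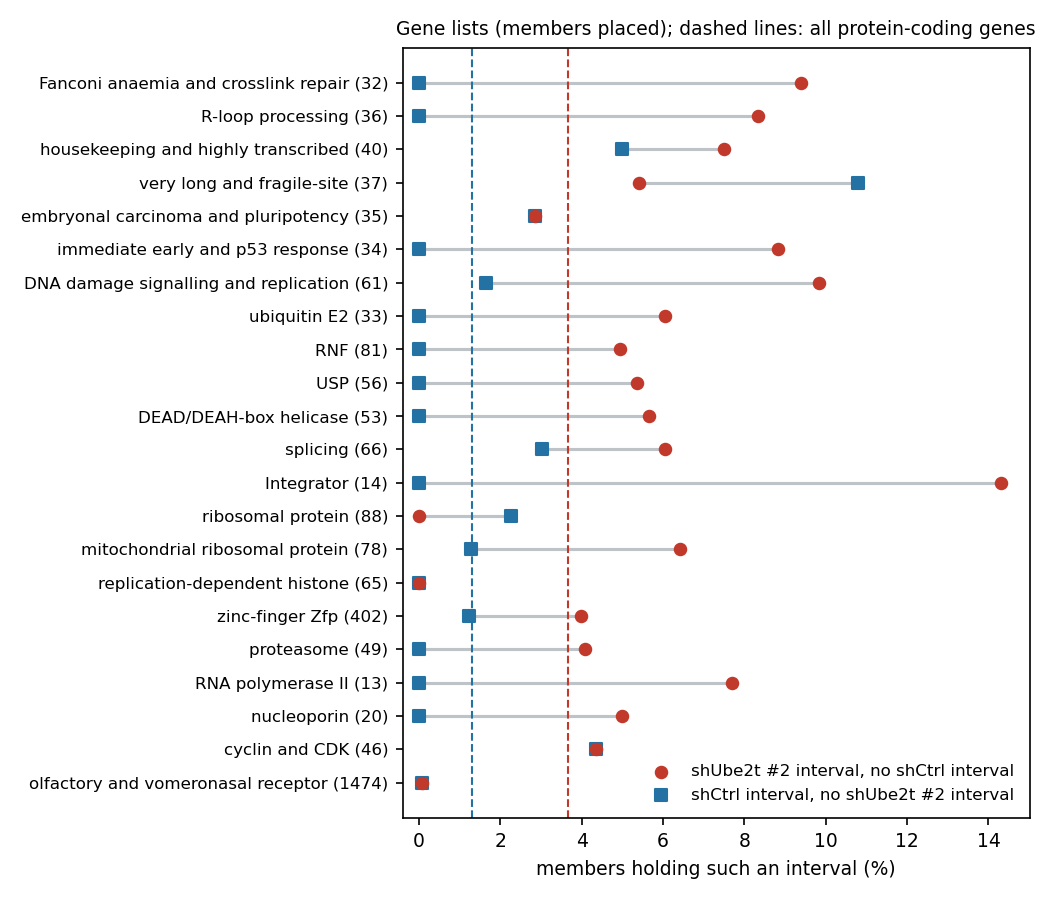
Share of each gene list (percent of placed members, whose number is in parentheses) holding a shUbe2t #2 interval and no shCtrl interval (circles) or the reverse (squares); dashed lines mark the same shares over all protein-coding genes, 3.66% and 1.30%. Circles lie to the right of squares for most lists, as for protein-coding genes in general, and the order is turned for very long and fragile-site genes and for ribosomal protein genes; most points are counts of 0 to 6 genes.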

How the data were processed

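The analysis started from the deposited MACS2 peak lists of 4 CUT&Tag libraries (1 per condition). The submitters' processing notes name the mm10 build, MACS2 version 2.1.2, Bowtie with the version 0.7.12, and Trimmomatic. How duplicates were handled, which q threshold was set and whether a control entered the calls is not given in the sources used. The authors' fold enrichment is a ratio of summit to local background, the deposited p and q are on a −log10 scale, and the deposited score column is a rounded display value that was not used. The lowest deposited −log10 q was 1.32 in shUbe2t #2 and 1.31 in shCtrl.

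Summits sharing chromosome, start and end were reduced to the best by p, which took 1810 summits to 1640 intervals and 1443 to 1263. Summit pileup and background were solved from the deposited fold (each of them raised by 1, then divided) and p (a Poisson tail). All solved pileups of the 4 lists were whole within 0.05. The smallest pileup that would be called in the other library used that library's lowest deposited −log10 p. Its background was that of the calling library, scaled by depth. PCR duplicates, if kept, would raise pileups. Genes, strands and promoters came from RefSeq tables on GRCm38.p6, with 49943 placed genes and no exons, so exons and introns were not told apart. Promoters of chromosome 18 were not used here.

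Members and gene lists were chosen with earlier results of these data known. Named genes are Ube2t, the strongest intervals free of no-antibody intervals (14 at gene ends and 6 in bodies for shUbe2t #2 only, 8 and 4 for shCtrl only), the shared gene-end intervals with the 6 highest and 4 lowest ratios and the 4 highest fold ranks, list members in 1 list only, and the 3 strongest no-antibody intervals. An interval went to the gene with the nearest end, otherwise to the longest gene holding it, with predicted genes last. Some genes that this rule names are not reported here. Members of lists named as held in both, neighbouring genes and small RNA genes were chosen after their values were seen. Python 3.11.15, numpy 2.4.6, pandas 2.3.3 and scipy 1.17.1 were used, and the pileup solution and overlaps were tested on simulated data.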

Additional observations from a re-analysis of the deposited data

How the results depend on the processing

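Of 62 values under 13 alternatives, 37 stayed within the limits set for each (1.5 times for a count, the 95% interval for a share, the interval of the median for a ratio) and 25 moved. In every alternative that gave a gene-end share, it was higher in shUbe2t #2 only than in shCtrl only, and every median ratio was over 1. With a −log10 q of at least 5 in both lists there were 344 intervals in shUbe2t #2 only, 179 in shCtrl only and 426 shared, the gene-end share was 32.7% in shCtrl only and 22.1% in shared intervals, the ratio was 1.14, and 383 and 118 genes held intervals of 1 list alone. With lists of equal length 615 shUbe2t #2 intervals were outside the shCtrl list and the ratio was 1.26. Leaving out intervals with a no-antibody interval gave 321 shared intervals, 59.2% of them at gene ends. In the order shUbe2t #2 only, shCtrl only and shared, gene-end shares were 61.7%, 31.2% and 31.7% with a window of 500 bp, 73.5%, 43.6% and 44.5% with 2000 bp, and 62.1%, 27.5% and 28.8% without predicted genes. With listed starts, an alternative chosen after seeing the data, they were 61.3%, 28.6% and 26.5%. Without depth scaling the ratio was 1.11. The windows, gene tables and fewer intervals change these shares by construction. Otherwise the cause was not tested. A 50% overlap rule has no value for genes. Counting intervals within 500 bp as shared, also chosen after seeing the data, kept 20 of 20 named shUbe2t #2 intervals and 11 of 12 named shCtrl intervals, with Pdcd10 the exception. No paired analysis was possible because each condition has 1 library. With summits of about 16 fragments, single intervals were measured with low precision.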

Other observations

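Small RNA genes were looked at after their values were seen. Over all placed genes, 1.96% held a shUbe2t #2 interval alone and 0.749% a shCtrl interval alone. Genes listed as snRNA held a shUbe2t #2 interval alone in 12 of 1004 cases (1.20%) and a shCtrl interval alone in 1 (0.0996%), both below the shares of all genes. Some of the 12 share an interval, as Rnu3b1 does with Gm23137, or hold one nearest to another gene. They included Rnu7, whose RNA processes histone transcripts, with 22 fragments and a fold of 4.46, Rnu2-10, a U2 gene, with 17 (5.33), and Rnu3b1, a U3 gene, with 15 (4.30). tRNA genes had 2 of 408 (0.490%) in shUbe2t #2 alone and 6 (1.47%) in shCtrl alone. Of those 6, 5 lie in a cluster on chromosome 1, at 3 shCtrl intervals: 171065860 to 171066091 near n-TLcag6 and n-TGgcc12 with 21 fragments, 171070838 to 171071091 near n-TEctc8 with 16, and 171074377 to 171074633 near n-TLcag7 and n-TGgcc13 with 24. The interval near n-TEctc8 overlaps a no-antibody interval. The Mir6546 interval, with 16 fragments in shUbe2t #2 and 31 in shCtrl, lies in the same cluster. Such genes have near-identical copies, among which read placement is uncertain.

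Chromosome 11 held 82 of the 616 shUbe2t #2 only gene-end intervals free of no-antibody intervals (13.3%), while it holds 7.35% of protein-coding genes. That is 5.10 per 100 protein-coding genes, the highest of the chromosomes, against 2.81 over all of them and 1.14 on chromosome X. On the control side chromosome 11 held 17 (8.63%), or 1.06 per 100 genes, against 0.900 over all chromosomes and 0.104 on chromosome X. Chromosome X was thus low on both sides, from 11 intervals in shUbe2t #2 only and 1 in shCtrl only. Chromosome Y held 0 and 1. CACGTG, a palindrome and so the same on both strands, was the motif whose share differed most between classes among 6 counted. It was in 15.4% of promoters in shCtrl only (22 of 143, 9.90 to 22.4), 7.11% in shUbe2t #2 only (41 of 577, 5.15 to 9.52), 8.77% in both (4.99 to 14.1) and 6.02% of all listed promoters. The bounds of the first pair are narrowly apart, and those of the shared class overlap each of them. Starts of the same gene are counted separately in these bounds, and no test between conditions was made. Between genes, the highest fold in shUbe2t #2 only was 8.07 from 17 fragments on chromosome X at 4136214 to 4136425, and in shCtrl only 7.31 from 18 fragments on chromosome 11 at 121956480 to 121956689.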
